A study of Homo sapiens with 9 samples.

Results

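Transcript boundaries were examined for 10 genes of cellular iron handling in K562, an established human erythroleukaemia line derived from chronic myeloid leukaemia. The genes cover iron uptake (TFRC, TFR2, STEAP3, SLC11A2), mitochondrial import (SLC25A37), storage (FTH1, FTL), ferritin turnover (NCOA4), heme degradation (HMOX1) and export (SLC40A1). They were chosen for these roles with earlier results of these data known, and 9 of the 10 held read pairs, against 22384 of the 62700 annotated genes. A read pair counted for a gene when both of its ends lay on the gene's strand within 1 kb of the Gencode v44 gene body (GRCh38, hg38). By this rule the members held 41581 of 15358140 read pairs, or 0.271%.

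The study applied TIF-Seq2, which sequences the 5′ and the 3′ end of the same capped and polyadenylated RNA molecule, to K562 cells kept for 24 h in 1 µM imatinib or in DMSO, the solvent control. Imatinib inhibits the BCR-ABL1 tyrosine kinase that these cells carry. The 4 libraries, 2 biological replicates of each condition, held from 2263121 to 5135829 read pairs. All 8 erythroid markers checked had read pairs, at a summed level of 6880 and 6160 RPM (read pairs per 1000000 read pairs of the library) in the DMSO libraries and 20800 and 19800 RPM in the imatinib libraries. Of 11 markers of lymphoid, monocytic, stromal and liver cells, CD3E, MS4A1 and CD14 had no read pair, and the sum of all 11 was 206 and 236 RPM with DMSO and 72.5 and 137 RPM with imatinib. Both sums moved with the treatment, and their part in the results below was not tested. In such bulk RNA, a change of the share of cells and a change per cell cannot be told apart.

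Most iron reaches erythroid cells as transferrin, which binds the transferrin receptor, is taken into endosomes and releases its iron there. The iron is reduced by STEAP3, leaves the endosome through SLC11A2 (DMT1), and is passed to the mitochondrion for heme, stored in ferritin or exported by ferroportin (SLC40A1). Iron-responsive elements (IREs) are short hairpins in mRNA that the iron regulatory proteins bind when iron is scarce. Bound in a 5′ UTR they block translation, and bound in the 3′ UTR of TFRC they protect the mRNA from decay. Because each read pair gives both ends of a molecule, it shows which molecules start upstream of an element or end downstream of it.

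The elements are shown first because start and poly(A) site choice was read against them. The annotated UTRs were searched on the gene's strand for a C, any 5 bases, then CAGTGN, and 5 further bases that pair with the first 5 at 4 or more places. The pattern occurred in 104 of 19441 5′ UTRs (0.535%) and in 842 of 19936 3′ UTRs (4.22%), while 5 of the 3′ UTRs (0.0251%) held 3 or more matches. It matched once in the 5′ UTR of FTH1, FTL and SLC40A1, once in a 3′ UTR of SLC11A2 and 4 times in the 3′ UTR of TFRC. Capitals mark the unpaired C and the loop letters, and all sequences are given 5′ to 3′ on the gene's strand from hg38.
FTH1, chr11:61967572-61967601, minus strand: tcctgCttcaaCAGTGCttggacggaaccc
FTL, chr19:48965336-48965365, plus strand: tcttgCttcaaCAGTGTttggacggaacag
SLC40A1, chr2:189580659-189580688, minus strand: aacttCagctaCAGTGTtagctaagtttgg
SLC11A2, chr12:50988267-50988296, minus strand: gccatCagagcCAGTGTgtttctatggttt
TFRC match 1, chr3:196050977-196051006, minus strand: attatCggaagCAGTGCcttccataattat
TFRC match 2, chr3:196050573-196050602, minus strand: attatCgggagCAGTGTcttccataatgta
TFRC match 3, chr3:196050508-196050537, minus strand: tgtatCggagaCAGTGAtctccatatgtta
TFRC match 4, chr3:196050461-196050490, minus strand: attatCgggaaCAGTGTttcccataatttt
The SLC11A2 match paired at 4 of 5 places and the other matches at 5 of 5. A match describes these letters only and does not show that a protein binds there.

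SLC25A37, TFR2, NCOA4 and SLC11A2 rose with imatinib, while TFRC, STEAP3, FTH1, FTL and SLC40A1 did not pass the test. All 9 members with read pairs passed the filter on low counts. In edgeR's quasi-likelihood test over 12135 genes, 4 of the 9 were called at a Benjamini-Hochberg adjusted p under 0.05, and each of the 4 was higher with imatinib. The background was 14.8% of all genes tested called, and 8.69% called higher. The median log2 fold change was 0.85 over the 9 members and 0.03 over all genes tested. DMSO levels ran from 17.3 ± 1.93 (SD, n = 2) RPM for SLC40A1 to 1250 ± 135 (SD, n = 2) for FTH1. In these levels 1 pair stands for 1 sequenced molecule and is not divided by length. Whether recovery varied with the length of the molecule was not tested. Each level below is given in the order DMSO replicate 1, DMSO replicate 2, imatinib replicate 1 and imatinib replicate 2.

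**Figure D1:**
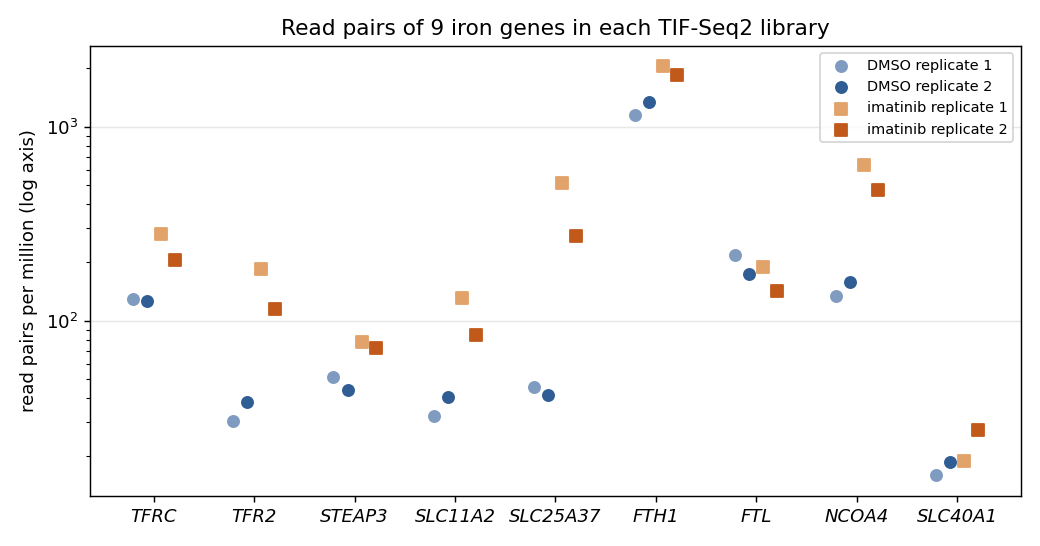
Level in RPM (log axis) of the 9 members with read pairs, 1 point per library, with circles for DMSO and squares for imatinib. For SLC25A37 the DMSO libraries sit at 45.7 and 41.3 and the imatinib libraries at 511 and 275, while for FTL the conditions overlap.

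**Figure D2:**
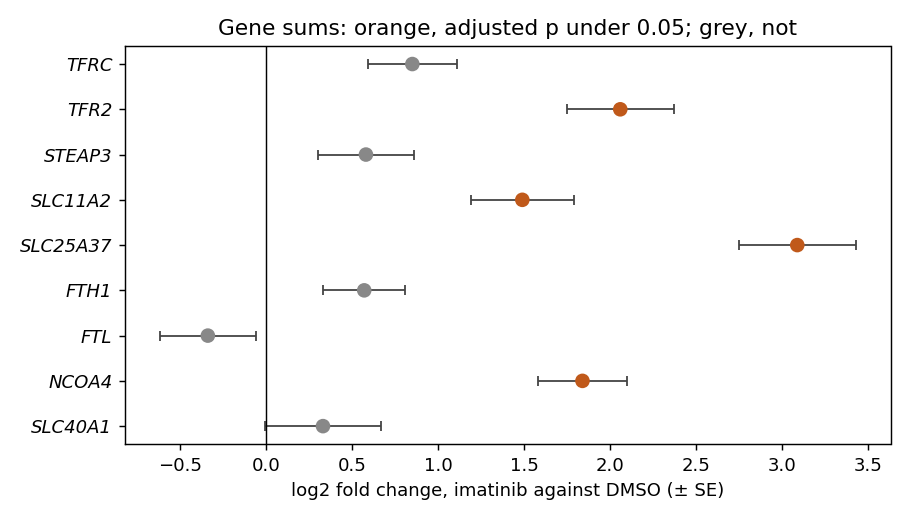
Log2 fold change of the gene sums, imatinib against DMSO, with the standard error, derived from the test's F value, as bars (2 libraries per condition). The 4 orange genes passed the adjusted threshold, from 1.49 for SLC11A2 to 3.09 for SLC25A37, and FTL is the only point below 0.

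TFRC (ENSG00000072274.14, chr3:196012511-196082153, minus strand) encodes transferrin receptor 1, the main route of iron uptake in erythroid cells. It had 130, 126, 281 and 206 RPM. Both imatinib libraries were above both DMSO libraries, but the log2 fold change of 0.85 (SE 0.26) did not pass edgeR's quasi-likelihood test (adjusted p = 0.0615). It was 0.90 without DMSO replicate 1, 0.75 without DMSO replicate 2, 0.67 without imatinib replicate 1 and 0.97 without imatinib replicate 2. With replicate number as a block it was 0.83 and did not pass (edgeR, adjusted p = 0.176). The gene had 1 start cluster, at chr3:196082090, which is an annotated start and held 58.4% of its read pairs.

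TFRC ended at several sites in its last exon, which is 2901 nt long and holds the whole 3′ UTR of 2661 nt. The site at chr3:196049285, within 1 nt of an annotated end and downstream of all 4 IRE matches, took 67.8% of read pairs. A site at chr3:196049333, also past all 4, took 7.02%. The site at chr3:196051637 lies 308 nt after the stop codon and upstream of every match, and took 11.5%. The site at chr3:196050922 falls between the first and the second match and took 3.10%. The last 30 bases before the most used site and before the early site are shown because they set the long and the short 3′ UTR apart, with a poly(A) signal in capitals where there is one.
TFRC long, chr3:196049285-196049314: tgtctgatttAATAAAatacttaaacactg
TFRC short, chr3:196051637-196051666: ctgttgttgttaatgaaaatgtcagaaacc
The long form has AATAAA 14 nt before its end, and the 30 nt of the short form hold neither AATAAA nor ATTAAA. Searched on the transcript's strand over all 30461 poly(A) clusters, 49.1% held AATAAA in these 30 nt, a further 15.7% held only ATTAAA and 35.2% held neither.

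Measured from end to end, 55.7% of TFRC read pairs (95% Wilson interval 53.9 to 57.6%) started upstream of the IRE matches and ended past at least 1 of them, and 47.0% spanned all 4. Wilson intervals here and below pool the 4 libraries and cover counting error only, not the spread between libraries. The share with at least 1 match was 50.7%, 55.5%, 56.4% and 59.7% in the 4 libraries, with the conditions less than 1 percentage point apart at their nearest libraries. The early site at chr3:196051637 took 18.0%, 14.4%, 7.65% and 10.7% of read pairs, so both imatinib libraries lay below both DMSO libraries. In the test of site usage within genes (edgeR's diffSpliceDGE) its usage change was −0.83 (log2, SE 0.34), which did not pass (adjusted p = 1.00 after Benjamini-Hochberg). The most used site took 57.0%, 64.4%, 75.0% and 65.0%, and its usage did not pass either (adjusted p = 1.00). Of the transcript isoforms defined by a start and a poly(A) cluster (TIFs), the one from chr3:196082090 to chr3:196049285 had 121, 210, 378 and 163 read pairs and rose by 1.22 (log2, SE 0.32, edgeR adjusted p = 0.0362). The one ending at the early site had 72, 83, 75 and 44 and a log2 fold change of 0.15 (SE 0.37, edgeR adjusted p = 0.841). The TIF to chr3:196049333 had 19, 18, 38 and 29 read pairs and a log2 fold change of 1.41 (SE 0.46, edgeR adjusted p = 0.0768), and the one to chr3:196050922 had 18, 26, 20 and 11 and a log2 fold change of 0.03 (SE 0.45, edgeR adjusted p = 0.971). The call of the long TIF was lost without DMSO replicate 1 or without DMSO replicate 2 (adjusted p = 0.341 and 0.197).

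**Figure D3:**
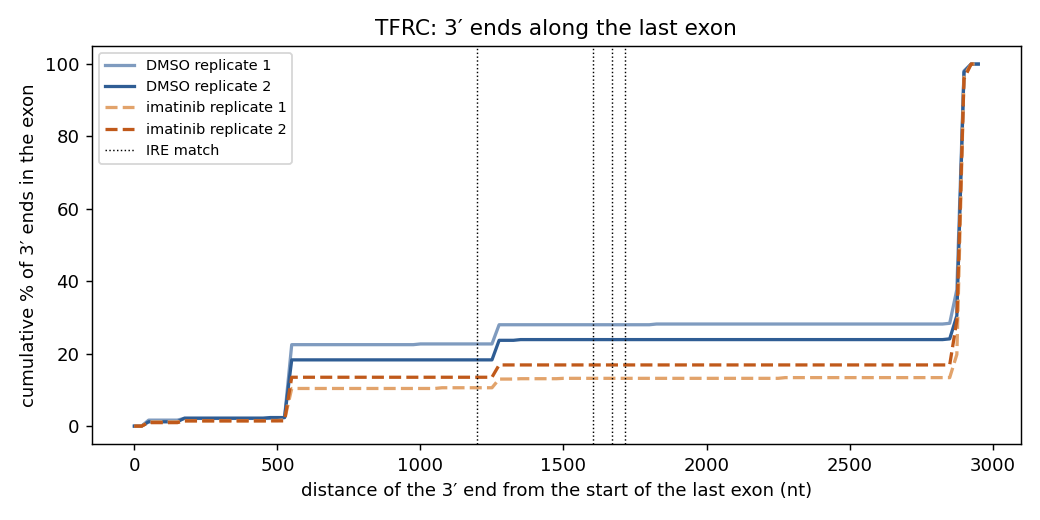
Cumulative share of TFRC 3′ ends along the last exon, in nt from its 5′ border, 1 line per library (solid for DMSO, dashed for imatinib), with dotted lines at the 4 IRE matches. The first step is the early site, before every match, where the DMSO lines rise further than the imatinib lines, and the last step is the site past all matches, which took 57.0 to 75.0% of all TFRC read pairs in the 4 libraries.

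TFR2 (ENSG00000106327.13, chr7:100620416-100642779, minus strand) encodes transferrin receptor 2, a second receptor expressed in liver and erythroid cells. It had 30.3, 38, 186 and 115 RPM, with no overlap between the conditions. It rose by 2.06 (log2, SE 0.31), or 4.17-fold (edgeR, adjusted p = 0.00488). Starts were spread over 7 clusters, of which the most used, at chr7:100642713, held 24.6% and lies 8 nt from an annotated start. The clusters at chr7:100641541 and chr7:100641121 held 9.40% and 5.45%, the latter in a coding exon of the canonical transcript. Ends fell at chr7:100620417 (62.5%), 1 nt from an annotated end, and at chr7:100624556 (34.8%), in the last intron of the canonical transcript and 1997 nt past the nearest annotated end. The second of these sites has AATAAA in capitals 16 nt before it, and the first has it 20 nt before.
TFR2 distal, chr7:100620417-100620446: tatcAATAAAccacctgatatcaataagcc
TFR2 intronic, chr7:100624556-100624585: tttttgtaAATAAAgttttattgaaacagc

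The TFR2 TIF from chr7:100642713 to the distal site had 10, 9, 72 and 33 read pairs and rose by 2.93 (log2, SE 0.47, edgeR adjusted p = 0.00675). The TIF from the same start to the intronic site had 10, 10, 39 and 23 and rose by 2.14 (log2, SE 0.47, edgeR adjusted p = 0.0209). That call was lost without DMSO replicate 1, without DMSO replicate 2 (edgeR adjusted p = 0.0723 and 0.206) and with DESeq2 (adjusted p = 0.0617). Another, from chr7:100641552 to the distal site, had 1, 1, 16 and 9 and rose by 3.99 (log2, SE 0.74, edgeR adjusted p = 0.0114), a call lost without DMSO replicate 2 (edgeR adjusted p = 0.0869) and with DESeq2 (adjusted p = 0.0659). The TIFs from chr7:100641541 did not pass. The one to the distal site had 6, 7, 22 and 9 read pairs (log2 fold change 1.73, SE 0.53, edgeR adjusted p = 0.0657) and the one to the intronic site 3, 7, 18 and 7 (log2 fold change 1.81, SE 0.59, edgeR adjusted p = 0.0770). Usage of the poly(A) sites did not pass the test (distal 0.11, SE 0.38; intronic −0.18, SE 0.45; adjusted p = 1.00 for both in edgeR). Of the TFR2 read pairs, 36.7% ended just before an A-rich stretch of the genome (at least 7 A among the next 10 bases), where the oligo-dT primer can anneal within the RNA, and these were left out of the sites and TIFs. Most of them ended at chr7:100632566 in intron 6, where 14, 42, 228 and 29 read pairs met 10 A. Without all such pairs the gene's log2 fold change was 2.00 and still called (edgeR, adjusted p = 0.00396).

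STEAP3 (ENSG00000115107.20, chr2:119223831-119265652, plus strand) encodes the ferric reductase of the endosome. It had 51.1, 44.2, 78.1 and 72.5 RPM, and its log2 fold change of 0.58 (SE 0.28) did not pass (edgeR, adjusted p = 0.192) although the conditions did not overlap. A single start cluster at chr2:119223836 held 66.1% of read pairs. The 3′ UTR ended at chr2:119265649 in 75.3% and at chr2:119263577 in 15.8%, and the shares of the longer form were 73.5%, 75.8%, 77.3% and 72.6% in the 4 libraries. The usage of the longer form was 0.05 (log2, SE 0.35, edgeR adjusted p = 1.00). Neither STEAP3 TIF from this start passed. The longer one had 70, 108, 174 and 78 read pairs (log2 fold change 1.01, SE 0.34, edgeR adjusted p = 0.0870) and the shorter one 24, 28, 43 and 21 (log2 fold change 0.80, SE 0.42, edgeR adjusted p = 0.244).

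SLC11A2 (ENSG00000110911.17, chr12:50979401-51028566, minus strand) encodes DMT1, the divalent metal transporter that moves reduced iron out of the endosome. It had 32.5, 40.3, 131 and 84.4 RPM, without overlap between conditions. It rose by 1.49 (log2, SE 0.30), or 2.81-fold (edgeR, adjusted p = 0.0145). The call was lost without DMSO replicate 1 (adjusted p = 0.0908) and without DMSO replicate 2 (adjusted p = 0.0524). The gene has alternative last exons, and the IRE match lies in one of them, 37 nt after the stop codon. The site at chr12:50985994 ends that exon and took 46.6% of read pairs. The sites at chr12:50979785 and chr12:50981010 end last exons further downstream, whose annotated transcripts splice out the exon with the match, and took 33.5% and 8.34%. All 3 ends have a poly(A) signal, in capitals.
SLC11A2 with IRE exon, chr12:50985994-50986023: gtttctaATTAAAaaaaaatttctttttcc
SLC11A2 distal, chr12:50979785-50979814: tacatttcAATAAAactttttaaaaaatcc
SLC11A2 middle, chr12:50981010-50981039: gttttctagtcATTAAAcagatatgaaggc

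Of all SLC11A2 read pairs, 25.9% (95% Wilson interval 23.3 to 28.6%) started upstream of the match and ended in its exon, since many of the pairs that ended there also started within the 3′ UTR. The share was 31.9%, 28.8%, 22.7% and 28.0% in the 4 libraries. Both imatinib libraries lay below both DMSO libraries, but the nearest libraries almost met at 28.0% and 28.8%. Among pairs in TIFs the share was 44.7%, 36.4%, 34.0% and 43.4%, with overlap between conditions. The site of the IRE exon took 49.6%, 43.9%, 45.8% and 49.7%, and its usage of −0.08 (log2, SE 0.46) did not pass (edgeR, adjusted p = 1.00). The distal site took 26.1%, 34.1%, 35.6% and 31.2%, with a usage of 0.20 (log2, SE 0.41, edgeR adjusted p = 1.00). The conditions overlapped at both sites. Neighbouring starts, at chr12:51026363 and chr12:51026384, held 23.1% and 19.0% of read pairs, and each was joined to all 3 ends. Of the 5 TIFs tested, 1 passed, from chr12:51026384 to the distal site, with 6, 20, 47 and 18 read pairs, a log2 fold change of 1.84 (SE 0.52) and an edgeR adjusted p of 0.05 after rounding, which lay just under the threshold. The call was lost with DESeq2 (adjusted p = 0.14), without DMSO replicate 1, without DMSO replicate 2 and without imatinib replicate 1 (edgeR adjusted p = 0.353, 0.0676 and 0.0718), and its log2 fold change ran from 1.38 without DMSO replicate 1 to 2.58 without DMSO replicate 2. The TIF from the same start to the IRE exon had 4, 11, 25 and 13 read pairs and a log2 fold change of 1.88 (SE 0.53, edgeR adjusted p = 0.0507). From chr12:51026363, the TIF to the distal site had 9, 22, 60 and 17 read pairs (log2 fold change 1.78, SE 0.51, edgeR adjusted p = 0.0516) and the TIF to the IRE exon 16, 20, 40 and 19 (log2 fold change 1.21, SE 0.44, edgeR adjusted p = 0.104).

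FTH1 (ENSG00000167996.16, chr11:61959718-61967634, minus strand) encodes the ferritin heavy chain, which oxidizes iron for storage. It had 1150, 1340, 2050 and 1840 RPM. The conditions did not overlap, but the log2 fold change of 0.57 (SE 0.24) did not pass (edgeR, adjusted p = 0.141). FTL (ENSG00000087086.15, chr19:48965309-48966879, plus strand) encodes the light chain, which helps iron settle in the ferritin core. It had 219, 174, 189 and 142 RPM, with overlap between conditions, and a log2 fold change of −0.34 (SE 0.28, edgeR adjusted p = 0.440). Reads that mapped to more than 1 place were removed before deposit, and 25 pseudogenes of FTH1 and 16 of FTL are annotated. Their summed read pairs came to 833 and 1, so part of the ferritin signal may sit elsewhere and the levels of both genes are uncertain.

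Nearly all ferritin molecules ended at a single site, at chr11:61964566 for FTH1 (99.0% of read pairs) and at chr19:48966878 for FTL (99.3%), each within 1 nt of an annotated end and with AATAAA shortly before it. Starts differed more. FTH1 began at chr11:61967631, an annotated start, in 60.0% of read pairs and at chr11:61967660, 26 nt upstream of an annotated start, in 11%. FTL began at chr19:48965309, its annotated start, in 34.1%. The starts are given here with the first transcribed base in capitals.
FTH1 main start, chr11:61967617-61967645: cgacccgcagggccAgacgttcttcgccg
FTH1 upstream start, chr11:61967646-61967674: acgccgacgcggctAtaagagaccacaag
FTL main start, chr19:48965295-48965323: agccacgtcccctcGcagttcggcggtcc
Of 15953 start clusters, 54.5% began with an A after a pyrimidine, as the FTH1 starts do, and 16.8% with a G after a pyrimidine, as FTL does.

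Molecules that held the IRE made up 70.9% of FTH1 read pairs (95% Wilson interval 70.3 to 71.5%), at 72.9%, 72.8%, 67.8% and 72.0% in the 4 libraries. Among the starts up to 200 nt upstream of the match, the most frequent distance to it was 35 nt for FTH1 and 32 nt for FTL. For FTL the share with the IRE was 36.6% (34.9 to 38.4%), at 36.4%, 31.8%, 43.2% and 34.3%. For both genes, library values lay outside the interval, which covers counting error only. The other FTL molecules started inside or downstream of the match, among them starts in coding exons at chr19:48966638 (9.75%) and chr19:48966703 (6.89%). Of FTL read pairs, 39.0% spanned less than 300 bp and entered no TIF. Among pairs in TIFs, the share with the IRE was 82.9% for FTH1 and 88.5% for FTL. Whether the downstream 5′ ends are caps of short RNAs or ends of broken ones was not tested.

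**Figure D4:**
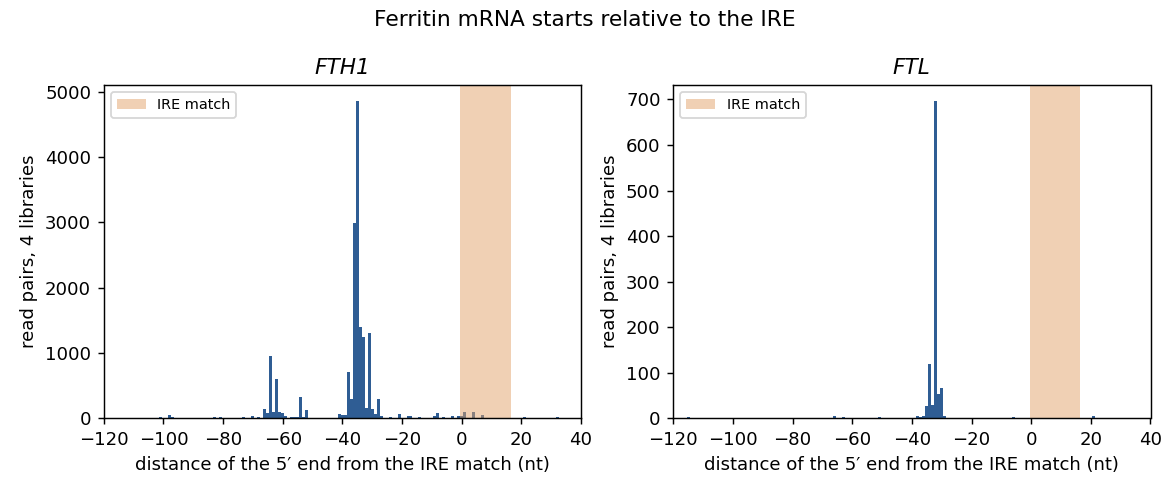
Read pairs of the 4 libraries by the distance of their 5′ end from the first base of the IRE match (shaded), for FTH1 (left) and FTL (right), from 120 nt upstream to 40 nt downstream. The FTH1 starts form peaks around 35 and 64 nt upstream and the FTL starts a single peak 32 nt upstream, so the element lies inside these molecules.

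A single FTL start was called in the usage test, at chr19:48966067. Another start in intron 2, at chr19:48966078, had 21, 12, 5 and 3 read pairs. It held 2.59%, 1.34%, 0.622% and 0.935% of the gene, lower in both imatinib libraries than in either DMSO library. Its usage was not tested. The cluster at chr19:48966067, in intron 2, had 19, 30, 3 and 1 read pairs, or 2.34%, 3.36%, 0.373% and 0.312% of the gene. The imatinib libraries were below the DMSO libraries, and its usage fell by 2.94 (log2, SE 0.64, edgeR adjusted p = 0.0312). The usage call was lost without each of the 4 libraries in turn (edgeR adjusted p from 0.109 to 0.486). Its TIF fell by 3.02 (log2, SE 0.63, edgeR adjusted p = 0.0169), a call that was lost without DMSO replicate 2 (edgeR adjusted p = 0.125) and with DESeq2 (adjusted p = 0.0815). The main FTL start had 278, 265, 318 and 105 read pairs and a usage of 0.11 (log2, SE 0.33, edgeR adjusted p = 1.00). Its TIF had 273, 263, 313 and 102 read pairs and a log2 fold change of 0.03 (SE 0.36, edgeR adjusted p = 0.971). None of the 14 FTH1 TIFs tested passed, and the largest, from chr11:61967631, had a log2 fold change of 0.71 (SE 0.22, edgeR adjusted p = 0.0618). The FTH1 TIF from chr11:61967660 had 499, 829, 950 and 369 read pairs and a log2 fold change of 0.48 (SE 0.28, edgeR adjusted p = 0.298).

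NCOA4 (ENSG00000266412.6, chr10:46005088-46030623, minus strand) encodes the receptor that carries ferritin to the lysosome, where its iron is released. It had 134, 159, 635 and 473 RPM. It rose by 1.84 (log2, SE 0.26), or 3.58-fold (edgeR, adjusted p = 0.00406), with no overlap between conditions. The 3′ end hardly varied, with 96.7% of read pairs at chr10:46005091, 3 nt from an annotated end, and ATTAAA 12 nt before it. The start varied. Clusters at chr10:46030607 and chr10:46030573 lie in the first exon, and clusters at chr10:46023405, chr10:46023458 and chr10:46023470 lie in intron 1 of the canonical transcript, 7202, 7149 and 7137 nt downstream. The intronic clusters surround the annotated start of a transcript at chr10:46023455, and the coding sequence of that transcript begins at chr10:46016680, the same base as in the canonical transcript. The main starts are shown because their shares differed between the conditions, with the first transcribed base in capitals.
NCOA4 first exon, chr10:46030593-46030621: cgcgagaactctgcCtttgggccgtaggt
NCOA4 first exon, chr10:46030559-46030587: tggggccgtgtctcAgtccacccaaggtc
NCOA4 intron 1, chr10:46023391-46023419: ccgggctcggggacCtttcgcactcgggt
The starts at chr10:46030607 and in intron 1 begin with CTTT after a C, and the other with an A after a C. Of all start clusters, 12.5% began with a C after a pyrimidine.

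Both groups of NCOA4 starts rose, and the intronic group rose further. The 3 intronic clusters had 47, 72, 853 and 320 read pairs, or 9.65%, 8.85%, 31.9% and 30.1% of the gene. The mean share was 9.25% ± 0.570 (SD, n = 2) with DMSO and 31.0% ± 1.23 (SD, n = 2) with imatinib. The 2 first-exon clusters had 311, 516, 942 and 447 read pairs, or 63.9%, 63.4%, 35.2% and 42.1%. The ratio of intronic to first-exon read pairs was 0.151, 0.14, 0.906 and 0.716, so the conditions were far apart compared with the spread between replicates. In the usage test, the clusters at chr10:46023405, chr10:46023458 and chr10:46023470 rose by 1.72 (SE 0.28), 3.09 (SE 0.51) and 4.84 (SE 1.03) on the log2 scale (edgeR adjusted p = 0.00176, 0.00163 and 0.0243). The last of them had no read pair in either DMSO library, so its fitted change is no bound. All 3 usage calls were lost when either DMSO library was left out. The first-exon clusters had usages of −0.63 and −0.66 (SE 0.27 for both) and did not pass (edgeR adjusted p = 0.597 and 0.539).

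**Figure D5:**
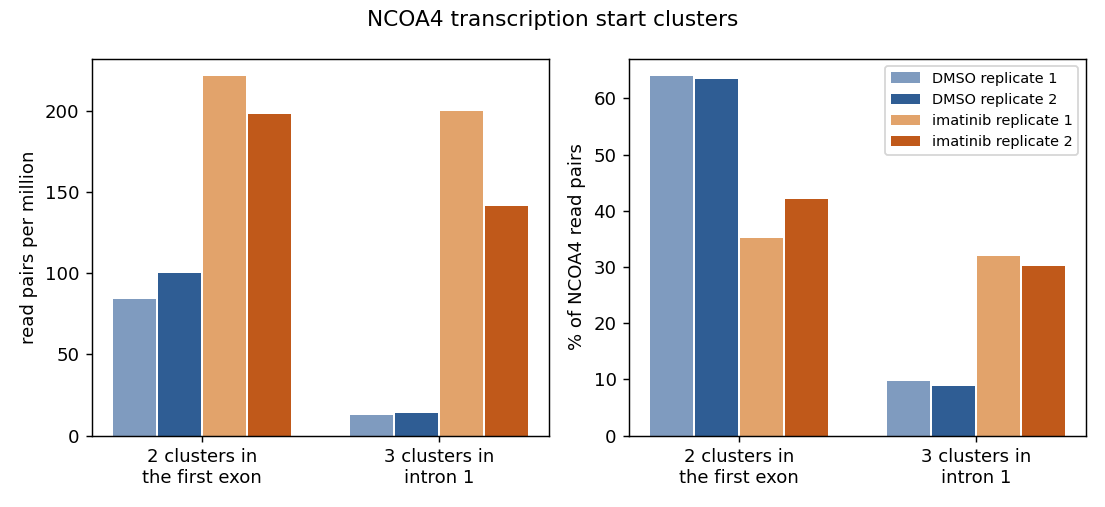
NCOA4 read pairs at its first-exon and intron 1 start clusters, as RPM (left) and as a share of the gene's read pairs (right), 1 bar per library. The intronic share is 9.65% and 8.85% in the DMSO libraries and 31.9% and 30.1% in the imatinib libraries, while the first-exon level in RPM is also higher with imatinib.

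Counted as TIFs to the common end, the NCOA4 start at chr10:46023405 had 43, 66, 733 and 274 read pairs and rose 12.8-fold (log2 3.67, SE 0.35, edgeR adjusted p = 0.00138). The one from chr10:46023458 had 1, 3, 72 and 29 and rose by 5.06 (log2, SE 0.60, edgeR adjusted p = 0.00294). The one from chr10:46023470 had 0, 0, 17 and 6 and passed the test (edgeR adjusted p = 0.0110), a call lost without DMSO replicate 2 (edgeR adjusted p = 0.0557). The first-exon TIF from chr10:46030607 had 146, 242, 453 and 230 read pairs and rose by 1.36 (log2, SE 0.30, edgeR adjusted p = 0.0201). The one from chr10:46030573 had 148, 239, 476 and 201 and rose by 1.31 (log2, SE 0.31, edgeR adjusted p = 0.0255). Both first-exon calls were lost without either DMSO library (adjusted p from 0.136 to 0.242). The calls for chr10:46023405 and chr10:46023458 were kept without each library in turn.

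Across the members, 13 of 42 TIFs tested were called, 12 higher and 1 lower with imatinib. Over the whole table of 16020 TIFs, 11.1% were called, 6.38% higher and 4.73% lower. Of 28 member start clusters tested for usage, 4 were called, 3 higher (NCOA4) and 1 lower (FTL). Among all 9177 clusters tested, 2.93% were called, 1.12% higher and 1.81% lower. Without DMSO replicate 1 and without DMSO replicate 2, edgeR called 0 member starts, while 6 and 5 of them had an unadjusted p under 0.05 and 5 and 15 of all clusters were called. None of the 17 member poly(A) sites tested was called by edgeR, and none had an unadjusted p under 0.05. Over all 6699 poly(A) sites 0.0597% were called, so this test passed few sites anywhere.

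SLC40A1 (ENSG00000138449.11, chr2:189560590-189583758, minus strand) encodes ferroportin, the exporter of cellular iron. It was the least covered of the 9 members with read pairs, with 59, 96, 81 and 62 read pairs, or 16.0, 18.7, 19.0 and 27.4 RPM. The log2 fold change of 0.33 (SE 0.34) did not pass (edgeR, adjusted p = 0.537). A start at chr2:189581990 held 8.12% of read pairs. Its main start, at chr2:189582022 with 22.9% of read pairs, coincides with an annotated start and lies over 200 nt upstream of the 5′ IRE match, as did the starts of 76.4% of read pairs, while 1.11% started from 1 to 200 nt upstream of the match. In all, 71.6% of read pairs (95% Wilson interval 65.9 to 76.6%) spanned the match on the genome. End pairs do not read whether the exon with it is spliced in. Among annotated coding transcripts, only 1 holds the match, and it does so in its first exon. TIFs from the main start began 1236 nt from the start of their assigned transcript. The span is therefore no count of molecules that hold the element. The 3′ UTR ended at chr2:189560592 in 36.5% and at chr2:189561769, an earlier site, in 32.5%. The earlier site took 41.8%, 41.1%, 14.7% and 31.0%, so both imatinib libraries were below both DMSO libraries, but with 23, 37, 10 and 18 read pairs its usage was not tested. The 4 SLC40A1 TIFs were too thin to be tested. From chr2:189582022, the TIF to the earlier site had 6, 11, 2 and 5 read pairs and the TIF to the later one 4, 6, 7 and 4. From chr2:189581990, the TIF to the earlier site had 0, 5, 0 and 4 and the TIF to the later one 0, 2, 1 and 1.

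HMOX1 (ENSG00000100292.18, chr22:35380361-35394214, plus strand) encodes heme oxygenase 1, which frees iron from heme. No read pair met the rule in any library. Pooled over the 4 libraries, this allows up to 3 of 15358140, or 0.195 RPM, by counting error alone. The limit for a single condition or library is higher. Its level was not detectable at this depth in either condition.

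SLC25A37 (ENSG00000147454.14, chr8:23528956-23575463, plus strand) encodes mitoferrin 1, which brings iron into the mitochondria of erythroid cells. It had 169, 212, 2178 and 623 read pairs, or 45.7, 41.3, 511 and 275 RPM. It rose by 3.09 (log2, SE 0.34), or 8.49-fold (edgeR, adjusted p = 0.00209), with no overlap between conditions though the imatinib libraries also differed from each other. The main start at chr8:23528956, an annotated start, held 23.3% of its pairs outside A-rich sites. Of all its read pairs, 68.5% ended before such an A-rich stretch. The most frequent end of the gene, at chr8:23566715 in intron 2 with 101, 109, 792 and 388 read pairs, is followed by 10 A, as is the one at chr8:23568948 in intron 3 with 7, 16, 496 and 40. Without all A-rich pairs the gene rose by 2.88 (log2, edgeR adjusted p = 0.00340).

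Among the remaining SLC25A37 pairs, the annotated end of the 3′ UTR at chr8:23575461 took 44%, and a site in intron 1 at chr8:23531924, 1 nt from the end of an annotated short transcript, took 14.8%. The 3′ UTR end had 7, 14, 345 and 75 read pairs, or 12.7%, 16.7%, 49.6% and 44.9%. The imatinib libraries were above the DMSO libraries, but its usage was not tested. Only 0, 0, 3 and 1 of these read pairs formed a TIF from the main start. No other SLC25A37 TIF ended there, so most pairs at this end were not tied to a start cluster and need not be full-length. A second 3′ UTR site, at chr8:23572548, had 5, 4, 103 and 6 read pairs, nearly all of them in imatinib replicate 1. The TIF from the main start to this site had 0, 0, 11 and 2 read pairs and the one to chr8:23567151 had 4, 4, 12 and 5, too few to be tested. The 2 TIFs tested both rose. The short one, from the main start to chr8:23531924, had 1, 1, 56 and 22 read pairs (log2 fold change 5.57, SE 0.66, edgeR adjusted p = 0.00294). The one to chr8:23567581, in intron 2, had 1, 5, 25 and 19 (log2 fold change 3.42, SE 0.64, edgeR adjusted p = 0.0117), with a log2 fold change of 2.89 without DMSO replicate 1 and 4.57 without DMSO replicate 2.

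Other genes of iron handling were read from a list of 57, of which 43 passed the filter on low counts. By edgeR's test 7 were higher, 2 were lower and 34 were not called, so 20.9% of those tested passed, against 14.8% of all genes tested (8.69% called higher), and the median log2 fold change was 0.12. None of the 6 iron sensors and regulators tested was called. They include ACO1 and IREB2, which encode the iron regulatory proteins that bind IREs (log2 fold changes of 0.31, SE 0.36, and 0.08, SE 0.29). The smallest adjusted p of the list belonged to TF, the transferrin gene, with 0, 1, 78 and 30 read pairs (log2 fold change 6.72, SE 0.69, edgeR adjusted p = 0.00151), a fitted value on a DMSO count of 1. BLVRB, a biliverdin reductase gene, had 579, 612, 1760 and 1400 RPM and rose by 1.33 (log2, SE 0.25, edgeR adjusted p = 0.0100). IBA57, of mitochondrial iron-sulfur cluster assembly, had 4, 9, 34 and 15 read pairs and rose by 2.24 (log2, SE 0.47, edgeR adjusted p = 0.0164). The other called-higher genes included SLC39A8, CYBRD1 and ABCG2. The lower ones were HSPA9, the mitochondrial chaperone of cluster transfer, which fell by 1.27 (log2, SE 0.26, edgeR adjusted p = 0.0148), and FDX1, a ferredoxin, which fell by 1.17 (log2, SE 0.32, edgeR adjusted p = 0.0418).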

How the data were processed

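The authors deposited 1 table per TIF-Seq2 library with counts of read pairs per combination of 5′ and 3′ end. Per the labels and the paper's methods, reads were trimmed with cutadapt 1.16, aligned to hg38 with STAR 2.5.3a, kept where both ends mapped uniquely to 1 chromosome, and deduplicated by UMIs of 8 bases. The counts are raw.

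Gene sums followed the rule stated in the report, and a pair in 2 overlapping genes counted for both. For sites, A-rich pairs (at least 7 A among the 10 bases past the 3′ end) were left out. Tags were scaled by a power law (exponent 1.25) and joined within 10 bp. TIFs needed 4 read pairs, 300 bp to 2 Mb apart. Shares are of a gene's pairs outside A-rich ends. An IRE in a last exon counted when the 3′ end lay in that exon, with 25 nt of tolerance. Intervals and zero-count limits cover counting error only, which for the 4 libraries means 2263121 to 5135829 read pairs each.

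Tests used edgeR 4.0.16 (quasi-likelihood, TMM, filterByExpr; diffSpliceDGE for usage) in R 4.3.3, on 2 libraries per condition, with Benjamini-Hochberg adjustment over all features and calls at 0.05. DESeq2 1.42.0 was an alternative. Alternatives were other size factors, filters, windows, cluster distances, a replicate block and leaving out each library. Text names all members, their sites and TIFs with at least 5% of read pairs (at most 4 of a kind), called ones, and the 3 listed iron genes of smallest adjusted p in each direction. The TFRC site at chr3:196050922, SLC25A37 and TFR2 A-rich ends, ACO1 and IREB2 were named after their values were seen. Members, lists and tests were chosen with earlier results of these data known. The 3T-fill libraries and long-read models were not used here.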

Additional observations from a re-analysis of the deposited data

How the results depend on the processing

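The count of called genes stayed at 4 with DESeq2, RLE factors, no filter, the 0 kb window, A-rich pairs left out and the replicate block, was 3 with a further log2 limit of 1.5, and ran from 3 to 5 with a library left out. Called TIFs, 13 in the report, were 8 with DESeq2, 20 without the filter on low counts, 9 with the replicate block, and 5 to 21 with a library left out. Called start sites, 4 in the report, were 2 with the replicate block and 0 to 3 with a library left out. Called poly(A) sites stayed at 0. The replicate block lost the called TIFs of TFRC and SLC11A2 and both first-exon TIFs of NCOA4 (edgeR adjusted p from 0.0592 to 0.102). It also lost the usage calls of the FTL start and of the NCOA4 start at chr10:46023470 (edgeR adjusted p = 0.0832 for both). The paper calls the DMSO samples corresponding controls, and replicate numbers are shared between conditions. No source ties these numbers to a shared batch. Deviations of same-numbered libraries correlated at −0.236 over genes and −0.300 over TIFs. The crossed pairing, chosen after seeing the data, called 6 genes, 25 TIFs, 0 poly(A) sites and 3 start sites. Keeping A-rich ends in the catalogue, also chosen afterwards, called 18 TIFs, 5 start sites and 0 poly(A) sites. The added start was that of SLC25A37 at chr8:23528873, with 24, 18, 6 and 5 read pairs. Its usage fell by 4.80 (log2, edgeR adjusted p = 0.000173). Without A-rich ends it had 7, 5, 2 and 1 read pairs and was not tested. The log2 fold change of SLC40A1, not called in the report, ran from −0.02 without imatinib replicate 2 to 0.64 without imatinib replicate 1.

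Restriction to pairs in TIFs drops short and thinly supported molecules. The share that spanned an IRE match was then 71.4% for TFRC, 37.4% for SLC11A2, 82.9% for FTH1, 88.5% for FTL and 100% for SLC40A1. The last rests on 58 pairs, and every SLC40A1 TIF starts upstream of the match and ends in the 3′ UTR. That 100% therefore follows from where the clusters lie and does not show whether the exon with the match is spliced in. With A-rich ends kept, the share at the most used poly(A) site was 39.6% for TFR2 and 13.9% for SLC25A37. With 2 libraries per condition and few pairs for SLC40A1, TFR2 and SLC11A2 isoforms, only large changes could be called.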
